A study of Homo sapiens with 9 samples.

Results

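TXX-1-10 was compared directly with rimonabant, the compound from which it was derived, across the genes of MDA-MB-231 cells, so that the difference described here is between the 2 compounds and not between a compound and its vehicle. Under TXX-1-10 the mRNAs of DNA synthesis and mitosis, the mRNAs made inside mitochondria and the YAP target genes CTGF and CYR61 stood lower than under rimonabant, while genes of the ATF4 and CHOP stress response, metallothioneins, autophagy adaptors and a group of quiescence-associated genes stood higher. The 4237 genes listed in all 6 libraries of the 2 compounds, of 27615 genes listed anywhere in the series, were compared 3 libraries against 3. The list of rimonabant replicate 1 ends early, so a second comparison took the 11740 genes listed in the other 5 libraries, 3 of TXX-1-10 against 2 of rimonabant. A gene without a line in a list was treated as not measured, never as 0.

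The series holds RNA-seq of MDA-MB-231 cells in 3 groups of 3 libraries: DMSO (the vehicle), rimonabant (SR in the labels) and TXX-1-10. MDA-MB-231 is an established human breast cancer line that lacks the estrogen receptor and has a mesenchymal shape. The groups share the line and differ, as far as the labels go, only in the agent. For the sequenced cells neither dose nor length of treatment is given in the sources used here, so equal doses of the 2 compounds cannot be assumed. No source says that the libraries of a group came from separate cultures, and p-values then measure only the spread between these libraries, which may be technical. A single line was used, and RNA of bulk cultures cannot tell fewer cells in a given state from less RNA per cell.

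The library totals that the deposited FPKM values rest on ran from 17477838 to 19277808 counts in the 6 compound libraries. The genes listed in all 6 held 78.9% to 80.8% of the listed counts in the libraries other than rimonabant replicate 1. Rimonabant replicate 1 and TXX-1-10 replicate 3 stood apart from the others of their group. Relative to their group their counts decreased as genes got longer (Spearman correlation across 4237 genes -0.693 and -0.692, with 0.477 to 0.667 in the other 4 libraries). Each group of the 6-library comparison holds 1 such library, whereas in the 5-library comparison only TXX-1-10 has one, so results that move without these libraries are also given without them. Of the 7 mesenchymal markers checked, VIM, CD44, ANXA1, MSN, AXL and CAV1 were above 20 FPKM in all 9 libraries and S100A4 was between 1.52 and 7.43 in the 7 that list it. Of epithelial and luminal markers CDH1 was at 0 counts in the 4 libraries that list it, while KRT19 was between 15.9 and 30.6 FPKM and EPCAM between 4.47 and 5.37. Markers of leukocytes were near 0, with PTPRC between 1 and 10 counts.

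Rimonabant blocks the cannabinoid receptor CB1 and was formerly used against obesity. TXX-1-10 came out of a screen for compounds that lower HPIP, a protein encoded by PBXIP1 that binds PBX homeobox proteins and is linked to growth signalling in breast cancer. In dividing cells the E2F factors switch on the genes of DNA synthesis before S phase, and a later wave of mitotic genes is controlled through promoter elements called CHR and CCAAT boxes. When protein folding or amino acid supply is disturbed, stress kinases favour translation of ATF4, which switches on DDIT3 (CHOP) and genes of amino acid uptake and synthesis.

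Levels are given as FPKM, the counts of a gene per 1000 bases of its transcript and per 1000000 counts of the library total, in the order of replicates 1, 2 and 3. Differences are log2 fold changes of TXX-1-10 over rimonabant with their standard error (SE), and p-values come from edgeR's quasi-likelihood test, adjusted by Benjamini-Hochberg over all genes tested. A call needs an adjusted p under 0.05 together with a log2 difference of 1 or more in either direction. These tests compare 1 pair of compounds. Genes with no FPKM per library in the text are given by their log2 difference only.

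In the 6 libraries 4236 genes were tested and 251 were called, which is 5.93% of them. Of these, 184 (4.34%) were lower and 67 (1.58%) higher under TXX-1-10. At any size of difference 1499 genes (35.4%) were lower and 956 (22.6%) higher with an adjusted p under 0.05. In the 5 libraries 844 of 11733 genes (7.19%) were called, 531 (4.53%) lower and 313 (2.67%) higher, and 3337 (28.4%) lower against 2785 (23.7%) higher passed at any size. The share of higher genes among the calls depended on the scaling: with TMM factors in place of the authors' totals the 6 libraries gave 153 lower and 90 higher calls, 37.0% higher in place of 26.7%, as the median of all genes moved from -0.08 to 0.01. Without both libraries that stood apart the 6-library comparison gave 186 lower and 69 higher calls. The plot of difference against count shows where these genes lie.

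**Figure D1:**
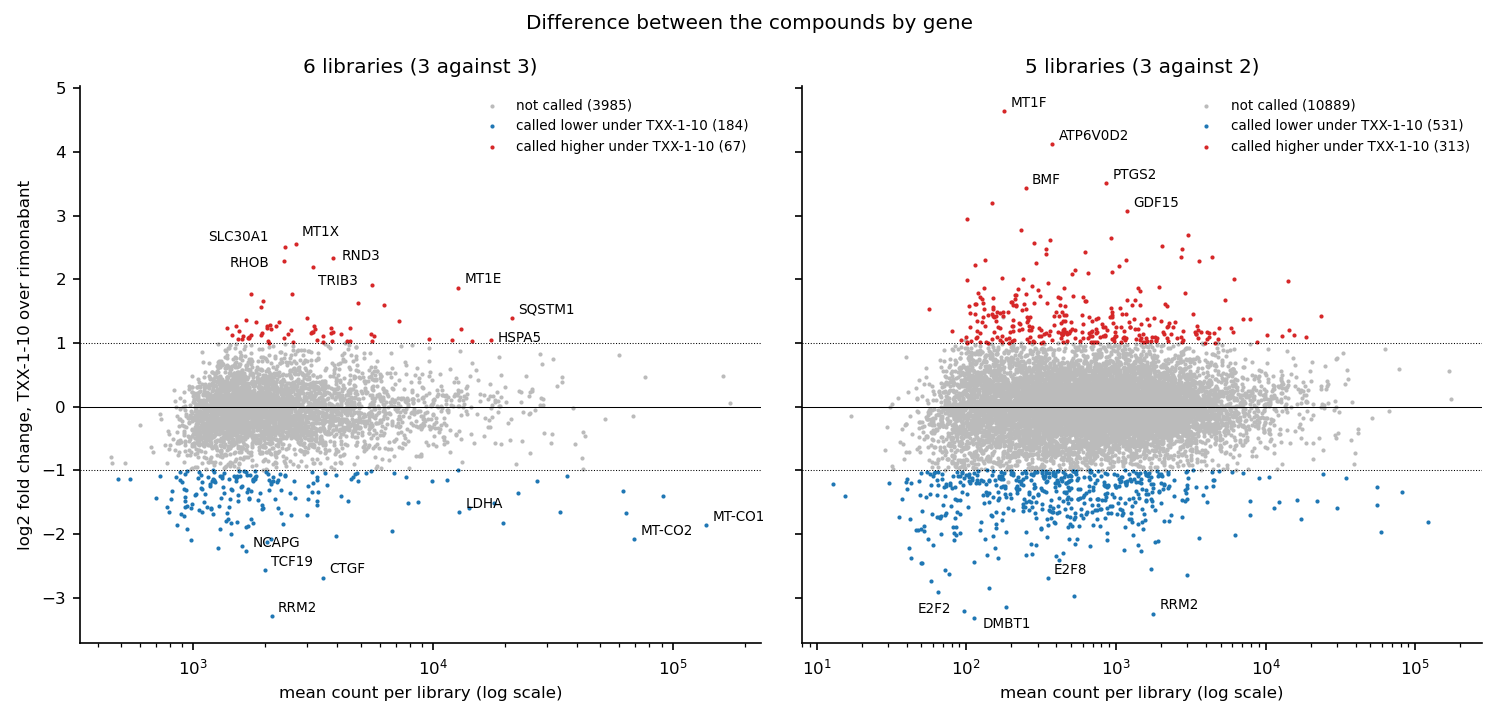
Each point is a gene, with its mean count per library on a log axis and the log2 fold change of TXX-1-10 over rimonabant on the vertical axis, for the 6-library (left) and the 5-library comparison (right), and dotted lines mark log2 differences of 1 and -1. RRM2 lies lowest among the 4236 genes of the left panel at -3.29, MT1X highest at 2.55, and the mitochondrial MT-CO1 is the most abundant of the named genes called lower.

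Sets of genes grouped by function were described by how many of their tested members were called and by their median difference, beside the median of all genes tested, -0.08 in the 6 libraries and -0.02 in the 5. The lists with the lowest medians in the 6 libraries were mitochondrially encoded mRNAs (-1.36), mitosis (-1.34), DNA replication (-1.16) and recombination and mismatch repair (-1.07). The highest medians were those of the FOXO-type quiescence genes (0.89), metallothioneins with zinc and iron handling (0.52) and the ATF4 and CHOP stress response (0.51). Cytosolic ribosomal proteins, at 0.08, had no member called in either direction.

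Genes that make deoxynucleotides were lower under TXX-1-10, and RRM2 differed more than any other gene in the 6 libraries. RRM2 (ENSG00000171848, chr2:10120698-10131419 on GRCh38, plus strand) encodes the small subunit of ribonucleotide reductase, which makes the deoxynucleotides for DNA. Its FPKM was 29.4, 28.9 and 26.5 in the vehicle libraries, 41.9, 37.7 and 39.5 with rimonabant and 3.53, 4.23 and 4.39 with TXX-1-10, from 3894, 3775 and 3892 counts with rimonabant and 362, 414 and 430 with TXX-1-10. All 3 TXX-1-10 libraries lay below every rimonabant and vehicle library, and the rimonabant libraries lay above vehicle. The difference was -3.29 ± 0.09 (95% interval -3.50 to -3.08, edgeR adjusted p = 1.14e-06), a 9.8-fold lower level. RRM1, the large subunit, stood at 64.7, 61 and 63.5 with rimonabant and 22.8, 20.8 and 24.3 with TXX-1-10 (-1.48 ± 0.07, edgeR adjusted p = 4.61e-06), beside 67, 64 and 62.9 in vehicle. TK1, which salvages thymidine, stood at 108, 83.3 and 92.7 against 32.8, 32.5 and 38.3 (-1.46 ± 0.11, edgeR adjusted p = 4.45e-05). For neither gene did the libraries of the compounds overlap each other. TYMS, thymidylate synthase, measured in the 5 libraries, was at 19.8 and 19.8 with rimonabant and 5.17, 6.16 and 6.2 with TXX-1-10 (-1.76 ± 0.10, edgeR adjusted p = 2.68e-06). Of 17 nucleotide synthesis genes tested in the 6 libraries 6 were called lower, against 4.34% of all genes, with a median of -0.77. At any size, 13 were lower and 1 higher with an adjusted p under 0.05, against 35.4% and 22.6% of all genes. CTPS1 (-1.30) and NME1 (-1.02) were also called lower.

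The replication machinery followed the same direction in every member tested. All 23 genes of the replication fork and of origin licensing had negative differences with an adjusted p under 0.05 in the 6 libraries, and 17 were called lower (median -1.16, from -2.23 to -0.44). With the 5 libraries 34 of 41 were called lower and all 41 passed at an adjusted p under 0.05 (median -1.27). Of all genes 4.34% and 4.53% were called lower in the 6 and the 5 libraries, and 35.4% and 28.4% were lower at that p. MCM10 (chr10:13161554-13211104), which loads the replicative helicase's partners onto origins, was at 25.3, 25 and 25.4 in vehicle, 20.1, 20.9 and 21.6 with rimonabant and 4.6, 4.55 and 4.22 with TXX-1-10 (-2.23 ± 0.06, edgeR adjusted p = 1.14e-06). CDC6, which loads the MCM helicase, was at 25.3, 25.5 and 24.2 in vehicle, 24.8, 26.8 and 25.2 with rimonabant and 6.57, 7.07 and 6.98 with TXX-1-10 (-1.90 ± 0.06, edgeR adjusted p = 1.62e-06). For both genes rimonabant lay near vehicle and TXX-1-10 below both. In the 5 libraries ORC1, a subunit of the origin recognition complex, differed by -2.33 ± 0.15 and GINS2, a subunit of the helicase, by -1.91 ± 0.14, both called lower by edgeR (adjusted p = 5.98e-06 and 9.51e-06). PCNA, the sliding clamp, was at 137, 133 and 134 in vehicle, 200, 172 and 173 with rimonabant and 60.1, 55.6 and 70 with TXX-1-10, so the 2 compounds lay on opposite sides of vehicle (-1.55 ± 0.10 between them, edgeR adjusted p = 2.21e-05). FEN1, the flap endonuclease of lagging strand synthesis, showed the same order with 49.8, 50.4 and 51.6 in vehicle, 69.7, 59.5 and 62.4 with rimonabant and 21.2, 20.3 and 23.7 with TXX-1-10 (-1.55 ± 0.08, edgeR adjusted p = 9.93e-06).

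Genes of the E2F family and its controls were lower as well, though not the whole cell cycle list. E2F1 (chr20:33675683-33686404), which switches on S-phase genes, was at 39.3, 39.8 and 38.2 in vehicle, 63.5, 53.5 and 57.6 with rimonabant and 14.5, 15.1 and 18 with TXX-1-10. The 3 groups did not overlap, with rimonabant highest and TXX-1-10 lowest, and the compounds differed by -1.87 ± 0.10 (edgeR adjusted p = 9.93e-06). In the 5 libraries E2F2 was at 1.94 and 2.14 with rimonabant and 0.238, 0.209 and 0.209 with TXX-1-10 (-3.21 ± 0.18), E2F8, a repressing member, at 9.62 and 8.72 and 1.5, 1.41 and 1.34 (-2.69 ± 0.11), and CCNE2, cyclin E2, at 6.64 and 6.8 and 1.46, 1.42 and 1.59 (-2.17 ± 0.10), all called lower by edgeR. CDKN2C, the CDK inhibitor p18, was lower too, at 12.7 and 13.4 against 2.17, 2.2 and 3.01 (-2.41 ± 0.14, edgeR adjusted p = 3.08e-06). Of 13 genes on the list of cyclins, CDK inhibitors and E2F control tested in the 6 libraries 2 were called lower (median -0.26). Of 24 in the 5 libraries 9 were called lower and 2 higher, CCND2 (1.03) and CDKN1C (1.98), and without TXX-1-10 replicate 3 the counts were 9 and 1. Among all genes 4.34% were called lower in the 6 libraries, and 4.53% lower and 2.67% higher in the 5. CCND1, cyclin D1, was at 115, 114 and 115 in vehicle, 84.4, 87.8 and 86.7 with rimonabant and 55.5, 56.3 and 53.3 with TXX-1-10, a difference of -0.65 ± 0.05 that was not called. CDKN1A, the CDK inhibitor p21, was at 30, 30 and 30.4 in vehicle, 88.2, 80.5 and 83.9 with rimonabant and 125, 117 and 129 with TXX-1-10, higher under TXX-1-10 by 0.55 ± 0.06 (edgeR adjusted p = 0.000276) and also not called.

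DNA repair by recombination was part of the same set of lower genes. Of 10 genes for recombination and mismatch repair tested in the 6 libraries 6 were called lower, and of 26 in the 5 libraries 16 (medians -1.07 and -1.16). In the 6 libraries DESeq2 called 4 of the 10 and limma 3. The share of all genes that edgeR called lower was 4.34% in the 6 libraries and 4.53% in the 5. EXO1, the exonuclease that resects DNA ends, was at 16.6 and 16.2 with rimonabant and 3.65, 3.51 and 3.62 with TXX-1-10 (-2.19 ± 0.07, edgeR adjusted p = 4.28e-07), beside 14, 13.1 and 12.3 in vehicle. BRIP1, a repair helicase, was at 6.64 and 6.78 and 1.65, 1.44 and 1.41 (-2.16 ± 0.09, edgeR adjusted p = 9.89e-07). The RecQ helicase BLM (-1.76 ± 0.13) and BARD1 (-1.86 ± 0.11) were called lower in the same comparison. PARP1, which marks DNA breaks with poly-ADP-ribose, was at 53.7, 54.2 and 54 in vehicle, 48.8, 50.2 and 49.4 with rimonabant and 17.9, 17.1 and 18.1 with TXX-1-10 (-1.48 ± 0.05, edgeR adjusted p = 1.79e-06), with no overlap between the compounds. UHRF1 and TCF19, a chromatin protein that maintains DNA methylation and a factor of proliferating cells, were also among the largest differences: UHRF1 was at 35.2, 35.5 and 34.9 against 8.28, 8.09 and 7.75 (-2.13 ± 0.05), and TCF19 at 54.2, 51.8 and 51.7 against 8.67, 8.36 and 9.54 (-2.57 ± 0.06), beside 35.3, 36.5 and 36.7 in vehicle.

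Mitotic genes made up the largest group of called genes among the lists. Of 42 tested in the 6 libraries 36 were called lower and 41 passed at an adjusted p under 0.05 (median -1.34). The exception was CDC25B, the phosphatase that activates CDK1, at 0.08 ± 0.07 (95% interval -0.08 to 0.24). With the 5 libraries 46 of 55 were called lower (median -1.43), and 47 without TXX-1-10 replicate 3. Beside these counts, 4.34% of all genes were called lower in the 6 libraries and 4.53% in the 5. NCAPG (ENSG00000109805, chr4:17810902-17844862, plus strand), a condensin subunit that compacts chromosomes, was at 33, 31.6 and 30 in vehicle, 30.3, 30.8 and 30.3 with rimonabant and 6.24, 6.37 and 6.35 with TXX-1-10. Its rimonabant libraries overlapped vehicle and its TXX-1-10 libraries lay below both (-2.27 ± 0.05, edgeR adjusted p = 8.5e-07). ANLN, the anillin of the cleavage furrow, was at 81.6, 79.6 and 77.2 in vehicle, 54.9, 60.6 and 57 with rimonabant and 14.4, 14.2 and 13.7 with TXX-1-10 (-2.03 ± 0.06, edgeR adjusted p = 1.14e-06). TOP2A, which untangles sister chromatids, was at 83.4, 97.8 and 92.1 against 23.5, 24.5 and 22.2 (-1.96 ± 0.08), and CCNA2, cyclin A2, at 42.1, 38.3 and 39.5 against 9.57, 11.3 and 10.5 (-1.93 ± 0.08). LMNB1, the nuclear lamina protein lamin B1, was on no list and was at 47, 48.2 and 50.9 in vehicle, 39.8, 39.5 and 38.2 with rimonabant and 8.5, 8.2 and 9.15 with TXX-1-10 (-2.18 ± 0.06, edgeR adjusted p = 1.14e-06).

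MKI67, the proliferation antigen Ki-67, was at 67, 65.2 and 61.8 in vehicle, 35.3, 59.9 and 52.3 with rimonabant and 18.7, 20.6 and 12.3 with TXX-1-10. Within each compound the library that stood apart had the lowest value, and the compounds did not overlap. The difference was -1.51 ± 0.24 (edgeR adjusted p = 0.00158), and -1.51 without those 2 libraries. CCNB1, cyclin B1, was at 128, 126 and 126 in vehicle, 72.2, 63.6 and 63.2 with rimonabant and 29.9, 30.1 and 35.5 with TXX-1-10 (-1.06 ± 0.09). Its difference lay close to the threshold and was -0.97 with TMM, -0.92 with a correction for gene length and -0.99 without rimonabant replicate 1, none of them a call.

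Promoters of 3 of these genes are shown because they hold the elements known from this class of genes, as RefSeq gives them on GRCh38.p14, each 300 bases from 250 before the transcription start to 50 after it and printed 5′ to 3′ on the plus strand, which is the strand of each gene. The capitals mark the CHR motif TTTGAA in NCAPG and ANLN, its reverse complement TTCAAA in ANLN, and the E2F motif TTTGGCGC in CDC6. The match begins 35 bases before the start in NCAPG (chr4:17810729-17811028) and 8 bases after it in CDC6 (chr17:40287629-40287928). In ANLN (chr7:36389612-36389911) a match on each strand lies side by side, 26 and 20 bases before the start.
NCAPG: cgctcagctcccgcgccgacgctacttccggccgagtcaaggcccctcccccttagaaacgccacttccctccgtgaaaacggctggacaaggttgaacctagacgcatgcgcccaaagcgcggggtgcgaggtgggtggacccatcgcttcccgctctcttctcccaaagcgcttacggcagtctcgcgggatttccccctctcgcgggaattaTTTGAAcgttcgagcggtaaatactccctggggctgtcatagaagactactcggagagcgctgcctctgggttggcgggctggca
ANLN: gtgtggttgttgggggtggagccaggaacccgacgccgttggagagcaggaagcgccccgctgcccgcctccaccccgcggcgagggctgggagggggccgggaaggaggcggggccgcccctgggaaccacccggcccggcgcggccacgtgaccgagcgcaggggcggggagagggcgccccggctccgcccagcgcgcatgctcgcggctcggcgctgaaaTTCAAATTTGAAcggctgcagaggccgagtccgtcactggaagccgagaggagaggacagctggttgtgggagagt
CDC6: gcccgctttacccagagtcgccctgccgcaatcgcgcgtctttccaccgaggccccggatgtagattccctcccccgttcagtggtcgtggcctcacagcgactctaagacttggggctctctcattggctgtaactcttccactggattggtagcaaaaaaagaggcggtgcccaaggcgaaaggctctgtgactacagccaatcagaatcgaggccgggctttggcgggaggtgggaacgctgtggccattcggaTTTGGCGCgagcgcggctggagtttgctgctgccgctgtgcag

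The same motifs were counted on both strands in such windows for all genes with a RefSeq promoter, where a gene can have several windows. Windows were found for 146 of the 173 nuclear genes called lower in the 6 libraries, 58 of the 67 called higher and 3585 of all 4219 tested. TTTGAA was in 63 windows of the lower genes, 32.3% of them, against 17.8% for the higher genes, 10.3% for all tested genes and 15.2% for all 35116 promoter windows. Of the windows of the mitosis list 59.1% held it, and of those of lower genes outside that list 24.5%. CCAAT was in 52.8% of the windows of lower genes, 29.7% of those of higher genes, 35% of those of tested genes and 34.6% of all promoters. TTTGGCGC or TTTCGCGC was in 7.69% of the windows of lower genes, 1 window of the higher genes (0.99%), 2.11% of the windows of tested genes and 1.15% of all, and in 6 windows of the replication list (23.1%). These are matches of letters and were given no test. TGATGNAAT, the element bound by ATF4 with its partners, was in none of the windows of the higher genes or of the 29 windows of the ATF4 list, and in 0.991% of all promoters.

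**Figure D2:**
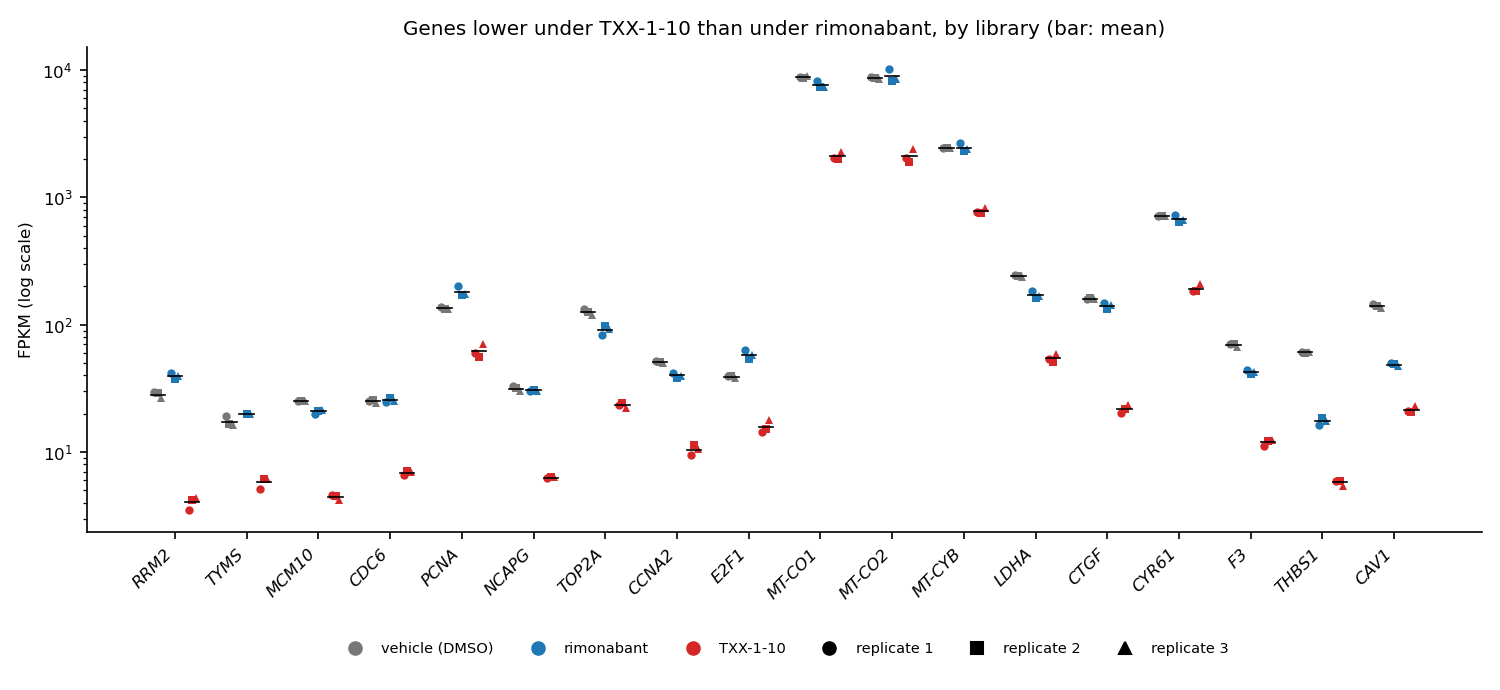
FPKM on a log axis in each library of vehicle (grey), rimonabant (blue) and TXX-1-10 (red) for 18 genes that were called lower under TXX-1-10, with the marker shape giving the replicate and a bar the mean. In each gene the red points lie below every blue point, with MT-CO1 between 7345 and 8189 FPKM under rimonabant and between 2002 and 2255 under TXX-1-10, and TYMS has no rimonabant replicate 1.

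TXX-1-10 libraries held less RNA of the mitochondrial genome than rimonabant libraries. They took 6.06% to 6.86% of the library totals under rimonabant, 6.26% to 6.52% in vehicle and 3.06% to 3.51% under TXX-1-10. Of the 13 mRNAs 10 were called lower in both comparisons, against 4.34% of all genes tested in the 6 libraries (medians -1.36 and -1.34). MT-CO1 (bases 5904 to 7445 of the mitochondrial genome), a core subunit of cytochrome oxidase, was at 8835, 8691 and 8908 in vehicle, 8189, 7401 and 7345 with rimonabant and 2030, 2002 and 2255 with TXX-1-10 (-1.87 ± 0.10, edgeR adjusted p = 8.4e-06). MT-CO2, the next subunit, was at 10163, 8174 and 8457 against 2050, 1909 and 2386 (-2.08 ± 0.12), and MT-CYB, the cytochrome b of complex III, at 2670, 2316 and 2397 against 769, 752 and 830 (-1.65 ± 0.08), with vehicle at 2430, 2420 and 2457. Rimonabant lay near vehicle for these genes and no TXX-1-10 library overlapped it. The mRNAs did not all move alike. MT-ND1 differed by -0.81 ± 0.09 and was not called, MT-ND2 was at 4164, 3514 and 3558 against 3305, 3171 and 3669 (-0.15 ± 0.10, 95% interval -0.39 to 0.09), and MT-ATP8 was higher, at 461, 494 and 503 against 637, 651 and 621 (0.39 ± 0.05, edgeR adjusted p = 0.000742). MT-ATP8 overlaps MT-ATP6, which was called lower (-1.33), and MT-ND4L overlaps MT-ND4. How reads in such overlaps were counted is not given, so the separate counts of these pairs are uncertain. All 13 transcripts are shorter than 2000 bases, and the median was -1.39 without the 2 libraries that stood apart.

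The respiratory chain subunits encoded in the nucleus differed by less. Of 30 tested in the 6 libraries none was called by edgeR, DESeq2 or limma, while 19 were lower at an unadjusted p under 0.05 and 16 after adjustment, with a median of -0.31. Of all 4236 genes tested 1623 were lower at an unadjusted p under 0.05 and 1499 after adjustment. The differences were negative in all 30 with the authors' totals and in 29 with TMM. ATP5MC1, a subunit of the ATP synthase ring, was at 40.3, 31.1 and 32.8 against 20.5, 18.1 and 21.5 (-0.79 ± 0.11), and ATP5F1A, its alpha subunit, at 28.2, 23.7 and 24.3 against 15.4, 15.2 and 17.8 (-0.66 ± 0.09). TCA cycle enzymes had a median of -0.39 with 13 of 16 lower at an unadjusted and at an adjusted p under 0.05 and none called by edgeR, DESeq2 or limma, among them DLD (-0.84 ± 0.06) and FH (-0.73 ± 0.07), and in the 5 libraries IDH2 was called lower (-1.11 ± 0.11, but -0.92 by limma on log2(FPKM + 1)). The proteasome showed a like picture, with 19 of 28 subunits lower at an unadjusted p under 0.05 and 18 after adjustment, none called by edgeR, DESeq2 or limma, and a median of -0.34. PSMB2 was at 35.5, 30.7 and 28.6 against 17.2, 17.2 and 20.3 (-0.79 ± 0.10), and PSMD1 at 31.1, 29.3 and 29.3 against 19.6, 19 and 18.7 (-0.65 ± 0.05).

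Genes of glycolysis and hypoxia mostly stood lower, with 5 in the other direction, 2 of them called. Of 25 tested in the 6 libraries (median -0.54) 3 were called lower and 2 higher, against 4.34% and 1.58% of all genes. With an adjusted p under 0.05, 20 were lower and 5 higher, against 35.4% and 22.6% of all genes. LDHA (chr11:18394388-18408425), which turns pyruvate into lactate, was at 246, 242 and 238 in vehicle, 185, 162 and 167 with rimonabant and 53.6, 50.6 and 59.1 with TXX-1-10 (-1.65 ± 0.08, edgeR adjusted p = 7.49e-06). The 3 groups did not overlap and TXX-1-10 was lowest. PGAM1 (-1.10) and the glucose transporter SLC2A1 (-1.11) were the others called lower. SLC2A3, another glucose transporter, was at 10.4, 10.1 and 10.9 against 25.4, 25.2 and 24.9 (1.26 ± 0.05), and VEGFA, the vascular growth factor, at 6.89, 7.25 and 7.58 against 16.1, 16.5 and 16.4 (1.17 ± 0.05), both called higher and with vehicle below rimonabant. ALDOC, a hypoxia-responsive aldolase of the 5-library comparison, was lower, at 6.46 and 6.08 against 2.2, 2.69 and 2.45 (-1.36 ± 0.12).

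Target genes of YAP and TEAD, the factors that respond to cell spreading and contact, included some of the largest differences. CTGF (ENSG00000118523, chr6:131948176-131951373, minus strand), a secreted matricellular protein, was at 158, 161 and 160 in vehicle, 147, 133 and 142 with rimonabant and 20.3, 22 and 23.3 with TXX-1-10. Rimonabant lay a little below vehicle and TXX-1-10 far below both, 6.44-fold under rimonabant (-2.69 ± 0.07, edgeR adjusted p = 1.14e-06). CYR61, a related protein, was at 720, 714 and 720 in vehicle, 722, 643 and 667 with rimonabant and 184, 184 and 207 with TXX-1-10 (-1.82 ± 0.08, edgeR adjusted p = 4.2e-06). F3, tissue factor, was at 70.9, 70.6 and 67.1 in vehicle, 43.8, 41.3 and 42.5 with rimonabant and 11.2, 12.3 and 12.4 with TXX-1-10 (-1.83 ± 0.06, edgeR adjusted p = 1.88e-06), a stepwise order without overlap. Of 19 tested 5 were called lower in the 6 libraries (median -0.53), against 4.34% of all genes. In the 5 libraries 7 of 22 were called lower (median -0.70), against 4.53% of all genes. NUAK2, measured in the 5 libraries, was at 1.28 and 1.38 against 0.286, 0.427 and 0.332 (-1.93 ± 0.21), a difference of -0.79 by limma on log2(FPKM + 1) and no call there.

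Among matrix and adhesion genes some members differed in each direction. The matrix list held larger shares of calls than all genes did, though from few members. THBS1 (chr15:39581079-39599466), the matricellular thrombospondin, was at 61.4, 59.5 and 60.9 in vehicle, 16.4, 18.4 and 17.5 with rimonabant and 5.98, 5.94 and 5.46 with TXX-1-10, lower under both compounds than in vehicle and lowest under TXX-1-10 (-1.59 ± 0.07 between them, edgeR adjusted p = 3.62e-06). CAV1, the caveolae protein, had the same order, with 145, 140 and 135 in vehicle, 49.7, 48.9 and 47.2 with rimonabant and 21, 20.8 and 22.9 with TXX-1-10 (-1.17 ± 0.06, edgeR adjusted p = 6.41e-06). TGFB2, the TGF-beta2 ligand, was at 19.3, 17.9 and 18.1 in vehicle, 4.13 and 3.99 with rimonabant and 1.4, 1.56 and 1.5 with TXX-1-10 (-1.45 ± 0.11, 5 libraries), and ID1, a target of BMP signals, at 148, 117 and 131 against 56.1, 54.6 and 66.1 (-1.16 ± 0.11). LAMA5, the laminin alpha5 chain, was at 13.8, 15.5 and 16.9 in vehicle, 6.87, 9.74 and 8.86 with rimonabant and 21.3, 22.4 and 15.9 with TXX-1-10, higher under TXX-1-10 by 1.23 ± 0.16 (edgeR adjusted p = 0.000678). TNC, tenascin C, was at 3.22 and 3.13 against 10.6, 10.6 and 7.72 (1.60 ± 0.14), and ITGA2, a collagen receptor, at 20.5, 29.1 and 25.4 against 53.8, 55.8 and 43 (1.02 ± 0.15). For both genes the lowest TXX-1-10 value was in replicate 3. The call of ITGA2 was lost without rimonabant replicate 1 (0.90) and without TXX-1-10 replicate 1 (0.98) or 2 (0.95). Of 22 matrix genes 3 were called lower (2 with TMM) and 1 higher in the 6 libraries, against 4.34% and 1.58% of all genes. In the 5 libraries 4 of 31 were called lower and 3 higher, against 4.53% and 2.67% of all genes. Of 24 focal adhesion and integrin genes 1 was called lower and 2 higher, and 7 were lower and 6 higher with an adjusted p under 0.05, against 35.4% and 22.6% of all genes. Of 26 actin and SRF genes 2 were called lower, 1 with TMM, and 13 were lower and 2 higher with an adjusted p under 0.05. The 2 were the myosin chains MYH10 (-1.05 ± 0.11) and MYL9 (-1.13 ± 0.08). MYH10 was at -0.96 without TXX-1-10 replicate 3 and at -0.97 without rimonabant replicate 2, and MYL9 at -0.99 with a correction for gene length, which ends these calls. ACTB, beta-actin, was at 1306, 1315 and 1315 in vehicle, 964, 808 and 843 with rimonabant and 429, 422 and 475 with TXX-1-10 (-0.98 ± 0.09), just short of a call, and shares sequence with ACTG1 (-0.90 ± 0.10).

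Turning to the genes that were higher under TXX-1-10, the stress response through ATF4 and CHOP stood out by the size of the difference in its most inducible members. TRIB3 (ENSG00000101255, chr20:362835-397559, plus strand), a pseudokinase that is a target of CHOP, was at 7.64, 6.99 and 7.34 in vehicle, 19.8, 17.1 and 16.5 with rimonabant and 79.8, 75.2 and 89.6 with TXX-1-10. The groups formed 3 steps without overlap, and TXX-1-10 was 4.58-fold above rimonabant (2.20 ± 0.09, edgeR adjusted p = 4.2e-06). DDIT3, which encodes CHOP itself, was measured in the 5 libraries at 21.1 and 22.3 with rimonabant and 122, 109 and 143 with TXX-1-10, beside 10.8, 11.3 and 11.2 in vehicle (2.52 ± 0.11, edgeR adjusted p = 1.58e-06). GDF15, a secreted stress cytokine, was at 2.24, 2.03 and 2.11 in vehicle, 5.02 and 6.13 with rimonabant and 45, 42.1 and 53.2 with TXX-1-10, 8.39-fold higher (3.07 ± 0.13, edgeR adjusted p = 1.14e-06). NUPR1, a small stress-induced chromatin protein, was at 0.506, 0.347 and 0.44 in vehicle, 2.17 and 2.05 with rimonabant and 12.2, 12 and 15.6 with TXX-1-10 (2.65 ± 0.13, edgeR adjusted p = 2.3e-06). All of these were above vehicle under rimonabant and higher still under TXX-1-10. ATF4 mRNA itself was at 185, 159 and 161 against 163, 160 and 194 (0.03 ± 0.10, 95% interval -0.20 to 0.26), and ATF4 is known to be controlled mainly in translation.

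Of the 21 ATF4 and CHOP genes tested in the 6 libraries (median 0.51) 3 were called higher, against 1.58% of all genes, or 6 with TMM or DESeq2. With an adjusted p under 0.05, 15 were higher and 2 lower, against 22.6% and 35.4% of all genes. With the 5 libraries 10 of 35 were called higher, 13 with TMM or DESeq2, against 2.67% of all genes, and 28 were higher with an adjusted p under 0.05 (median 0.70). SLC3A2, the heavy chain of amino acid transporters, was at 42.1, 43.2 and 44.2 in vehicle, 88.3, 77.3 and 78.2 with rimonabant and 164, 159 and 182 with TXX-1-10 (1.05 ± 0.08, and 0.99 without TXX-1-10 replicate 3), and SESN2, a sensor of amino acids, at 10.8 and 11 against 23, 23.3 and 22.7 (1.08 ± 0.06). ASNS, asparagine synthetase, was called higher in the 5 libraries (1.18). Aminoacyl-tRNA synthetases, which load tRNAs with amino acids, were split, with 11 higher and 6 lower of 20 at an adjusted p under 0.05 (median 0.35). The shares of all genes in the 6 libraries were 22.6% higher and 35.4% lower. WARS was called higher at 26.3, 24.4 and 24.9 against 50.8, 50.9 and 52.7 (1.03 ± 0.05), while GARS (0.94 ± 0.06), SARS (0.85 ± 0.06) and CARS (0.83 ± 0.06) were short of a call, although TMM gave 1.03 and a call for GARS.

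Chaperones of the endoplasmic reticulum did not move as a group. Of 18 tested in the 6 libraries 8 were higher and 7 lower with an adjusted p under 0.05, against 22.6% and 35.4% of all genes. The median was 0.09, and 1 was called. This was HSPA5, the chaperone BiP, at 138, 136 and 139 in vehicle, 166, 152 and 154 with rimonabant and 318, 309 and 350 with TXX-1-10 (1.05 ± 0.07, edgeR adjusted p = 2.85e-05), and the difference was 0.996 without TXX-1-10 replicate 3. DNAJB9, a cochaperone of BiP, was at 8.26 and 10.4 against 20.2, 19.1 and 21.2 (1.11 ± 0.10, and 0.96 without rimonabant replicate 2), and ERN1, the sensor IRE1, at 2.63 and 2.32 against 6.53, 6.61 and 5.29 (1.31 ± 0.11), both called with the 5 libraries. HERPUD1, of ER-associated degradation, was higher by 0.90 ± 0.07 without being called. Cytosolic heat shock genes were split as well, with 6 higher and 6 lower of 18 at an adjusted p under 0.05, against the same shares of all genes. Their median of -0.01 turned to 0.08 with TMM. HSPA1B was at 23.4, 23.3 and 23.8 in vehicle, 56.1, 52 and 51.8 with rimonabant and 108, 105 and 112 with TXX-1-10 (1.02 ± 0.05), just past the threshold with all libraries and just under it without TXX-1-10 replicate 3, and HSPA6 in the 5 libraries at 1.03 and 1.3 against 7.92, 7.15 and 8.75 (2.77 ± 0.17). HSPA1B and HSPA1A (1.40 ± 0.16) are near-identical copies and their separate counts are uncertain.

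Zinc-responsive genes gave the largest higher differences. MT1X (ENSG00000187193, chr16:56682424-56684196, plus strand), a metallothionein that binds zinc and other metals, was at 25.5, 26.6 and 26.1 in vehicle, 28.1, 20.4 and 22.6 with rimonabant and 122, 129 and 165 with TXX-1-10. Rimonabant overlapped vehicle, and TXX-1-10 lay 5.86-fold above rimonabant (2.55 ± 0.15, edgeR adjusted p = 1.68e-05). MT1E was at 585, 511 and 506 in vehicle, 318, 263 and 263 with rimonabant and 978, 917 and 1186 with TXX-1-10, so that rimonabant was the lowest of the 3 groups (1.87 ± 0.12, edgeR adjusted p = 2.36e-05). MT1F had only 9 and 14 counts in the 2 rimonabant libraries that list it and 323, 244 and 302 under TXX-1-10 (4.64 ± 0.31, edgeR adjusted p = 2.24e-06), beside 28 and 12 in the 2 vehicle libraries that list it. Metallothionein genes are near-identical in part, so their separate counts are uncertain. SLC30A1 (chr1:211571568-211578742), which exports zinc from the cell, was at 5.59, 5.07 and 5.18 in vehicle, 6.78, 7.31 and 7.1 with rimonabant and 40.9, 39.7 and 40.1 with TXX-1-10, 5.69-fold higher (2.51 ± 0.05, edgeR adjusted p = 8.5e-07). The importer SLC39A10 was called lower in the 5 libraries (-1.27). MT2A, the most abundant of the family, was at 3085, 2266 and 2675 against 3369, 3253 and 4492 (0.47 ± 0.16) and was not called. Of 12 metallothionein, zinc and iron genes in the 6 libraries 4 were called higher, against 1.58% of all genes (median 0.52).

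Iron and heme genes of the oxidative stress response belonged to the same group. FTH1, the ferritin heavy chain that stores iron, was at 137, 133 and 133 in vehicle, 283, 236 and 242 with rimonabant and 490, 491 and 574 with TXX-1-10 (1.03 ± 0.10), a call that was lost without TXX-1-10 replicate 3 (0.95), without rimonabant replicate 2 (0.98) and without rimonabant replicate 3 (0.997). HMOX1, heme oxygenase 1, was at 4.8, 4.39 and 3.26 in vehicle, 7.74 and 7.81 with rimonabant and 36.9, 34.5 and 43.7 with TXX-1-10 (2.30 ± 0.11, edgeR adjusted p = 1.88e-06). OSGIN1, a target of NRF2, was at 8.4 and 8.95 against 18.6, 18.3 and 22 (1.18 ± 0.10). Of 17 NRF2 targets tested in the 6 libraries (median 0.13) 2 were called higher, against 1.58% of all genes. With an adjusted p under 0.05, 6 were higher and 1 lower, against 22.6% and 35.4% of all genes. In the 5 libraries 4 of 23 were called higher, against 2.67% of all genes, and 12 were higher and 1 lower with an adjusted p under 0.05 (median 0.26). TXNRD1, thioredoxin reductase, was at 83.3, 79 and 75.2 in vehicle, 155, 166 and 158 with rimonabant and 170, 167 and 165 with TXX-1-10, and its 95% interval between the compounds was -0.07 to 0.21.

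Autophagy genes were higher, led by receptors and ATG8 proteins. SQSTM1 (chr5:179806398-179838078), the cargo receptor p62, was at 47, 48 and 48.6 in vehicle, 85.8, 80.7 and 82.5 with rimonabant and 216, 212 and 224 with TXX-1-10, in 3 steps without overlap (1.39 ± 0.06, edgeR adjusted p = 4.2e-06). GABARAPL1, an ATG8 protein, was at 6.46, 6.32 and 6.85 in vehicle, 16, 15.5 and 16.2 with rimonabant and 36, 37.1 and 39.6 with TXX-1-10 (1.24 ± 0.06, edgeR adjusted p = 4.47e-06). The others called in the 6 libraries were MAP1LC3B (1.11) and the kinase ULK1 (1.15). Among genes of the 5 libraries RRAGC, a GTPase that carries amino acid signals to mTORC1, was at 4.95 and 4.84 against 12.1, 12.4 and 14.3 (1.41 ± 0.09), and WIPI1, which acts in autophagosome formation, at 10.6 and 10.7 against 25, 24.4 and 26.4 (1.24 ± 0.07). Of 33 autophagy and lysosome genes 26 were higher and 1 lower with an adjusted p under 0.05, against 22.6% and 35.4% of all genes. Of the 33, 4 were called higher (median 0.39), against 1.58% of all genes. In the 5 libraries 8 of 49 were called higher, against 2.67% of all genes, or 6 without TXX-1-10 replicate 3. ATP6V0D2, a subunit of the lysosomal proton pump that was on no list, had 31 and 38 counts in the 2 rimonabant libraries and 592, 626 and 593 under TXX-1-10 (4.12 ± 0.16, edgeR adjusted p = 5.06e-07).

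Genes associated with quiescence and FOXO factors had the highest median of the lists in the 6 libraries. KLHL24, a ubiquitin ligase adaptor, was at 2.88, 2.59 and 2.75 in vehicle, 5.24, 6.22 and 6.15 with rimonabant and 19.5, 18.5 and 17.7 with TXX-1-10 (1.66 ± 0.08, edgeR adjusted p = 6.34e-06). PNRC1, a nuclear cofactor, was at 5.97, 5.7 and 6.4 in vehicle, 16.4, 12.9 and 13.7 with rimonabant and 44.8, 46.3 and 54.6 with TXX-1-10 (1.76 ± 0.11, edgeR adjusted p = 2.17e-05), and BTG1, an antiproliferative factor, at 10.1, 8.54 and 8.58, 19.7, 17.1 and 18 and 45.3, 44.4 and 54.6 for the same 3 groups (1.40 ± 0.10, edgeR adjusted p = 2.85e-05). In each gene the 3 groups stood in steps from vehicle to rimonabant to TXX-1-10 with no overlap. With YPEL5 (1.13 ± 0.07), 4 of 10 tested genes were called higher, and 9 were higher with an adjusted p under 0.05 (median 0.89). The shares of all genes were 1.58% and 22.6%. In the 5 libraries 4 of 20 were called higher, against 2.67% of all genes.

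Immediate-early and KLF factors were higher as well. KLF4 (chr9:107484852-107490482), a zinc finger factor of differentiation, was at 10.9, 9.65 and 11.8 in vehicle, 17.9, 16.9 and 17.1 with rimonabant and 57.2, 58.8 and 60.1 with TXX-1-10 (1.76 ± 0.05, edgeR adjusted p = 1.14e-06). KLF6 was at 28.9, 29.2 and 28.8, 23.9, 25.9 and 26 and 54.5, 52.4 and 48.2 in that order, so that rimonabant lay below vehicle (1.03 ± 0.07, and 0.99 without rimonabant replicate 1 or TXX-1-10 replicate 1). KLF2 (1.37 ± 0.12), KLF9 (1.44 ± 0.07) and the nuclear receptor NR4A1 (1.53 ± 0.14) were called higher in the 5 libraries. Of 18 tested in the 6 libraries 4 were called higher, against 1.58% of all genes, or 3 without the 2 libraries that stood apart. With an adjusted p under 0.05, 14 were higher, against 22.6% of all genes, and the list's median was 0.47. MYC was higher by 0.59 ± 0.06, at 68.4, 60.5 and 64.7 against 94.5, 94.7 and 102, without being called.

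The small GTPase genes RND3 and RHOB were among the 4 largest higher differences of the 6 libraries. RND3 (chr2:150468195-150539011), which loosens actin stress fibres, was at 21, 18.4 and 18.5 in vehicle, 19.3, 18.6 and 18.8 with rimonabant and 96.1, 91.4 and 98.7 with TXX-1-10, and RHOB (chr2:20447074-20449445), an endosomal GTPase, at 19, 20.6 and 21.8, 19.9, 16.4 and 18.8 and 88.5, 85.9 and 95. In both genes rimonabant lay at the level of vehicle, and TXX-1-10 was 5.04-fold and 4.89-fold higher than rimonabant (2.33 ± 0.05 and 2.29 ± 0.08, edgeR adjusted p = 8.5e-07 and 2.3e-06). UPP1, which splits uridine, was at 12.9, 12.3 and 13 in vehicle, 31.2, 25.1 and 26.2 with rimonabant and 98.9, 95.6 and 115 with TXX-1-10 (1.91 ± 0.11). PLIN2, which coats lipid droplets, was at 34.5, 33.6 and 33.1, 27.3, 24 and 24.7 and 75.1, 72.6 and 85.7 in that order, with rimonabant below vehicle and TXX-1-10 above (1.62 ± 0.08, edgeR adjusted p = 7.99e-06). AHNAK2, a very large scaffold protein, was at 5.79, 11.4 and 9.36 against 30.3, 32.4 and 17.7 (1.60 ± 0.29), with the lowest value of each compound in the library that stood apart. FASN, fatty acid synthase, was at 55.2, 58.4 and 61.8 in vehicle, 38.4, 41.3 and 41.7 with rimonabant and 59.5, 60.2 and 50.8 with TXX-1-10. Its difference of 0.49 ± 0.08 was not called. The list of fatty acid and lipid genes had a median of 0.03 with 1 of 18 called, against 5.93% of all genes.

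Several interferon-induced genes were higher under TXX-1-10. IFIT3 was at 24.6, 22.9 and 22.6 in vehicle, 25.4, 25.6 and 23.4 with rimonabant and 60.9, 57.4 and 63.3 with TXX-1-10 (1.29 ± 0.06, edgeR adjusted p = 6.33e-06), and the ubiquitin-like ISG15 at 61.7, 57.2 and 57.1, 57.9, 43.5 and 50.6 and 111, 112 and 144 (1.27 ± 0.14, edgeR adjusted p = 0.000246). IFIT2 was above vehicle under rimonabant and higher under TXX-1-10, with 10.5, 9.02 and 8.86, 13.4, 13.7 and 13.3 and 29.9, 27.1 and 29.6 (1.10 ± 0.06). IFIT1 was at 7.5, 6.85 and 6.82 in vehicle, 4.86 and 5.2 with rimonabant and 14.7, 13.9 and 15.5 with TXX-1-10 (1.55 ± 0.08, 5 libraries). Of 12 MHC class I and interferon genes in the 6 libraries 3 were called higher (median 0.22), against 1.58% of all genes. In the 5 libraries 4 of 24 were called higher, against 2.67% of all genes. Among cytokines and NF-kB targets 1 of 12 was called in each direction, against 1.58% of all genes higher and 4.34% lower. ICAM1, an adhesion molecule, was higher, at 14.4, 15.3 and 15.4 against 31.1, 32.8 and 29.9 (1.05 ± 0.06). BIRC3, an inhibitor of apoptosis, was lower, at 16.4, 17.9 and 17.7 against 6.89, 7.09 and 6.54 (-1.34 ± 0.06). With TMM 2 were called higher, ICAM1 and LIF (1.015). CXCL2, a neutrophil chemokine, was at 10.5 and 10.4 against 25.9, 25.5 and 33 (1.43 ± 0.13) in the 5 libraries.

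**Figure D3:**
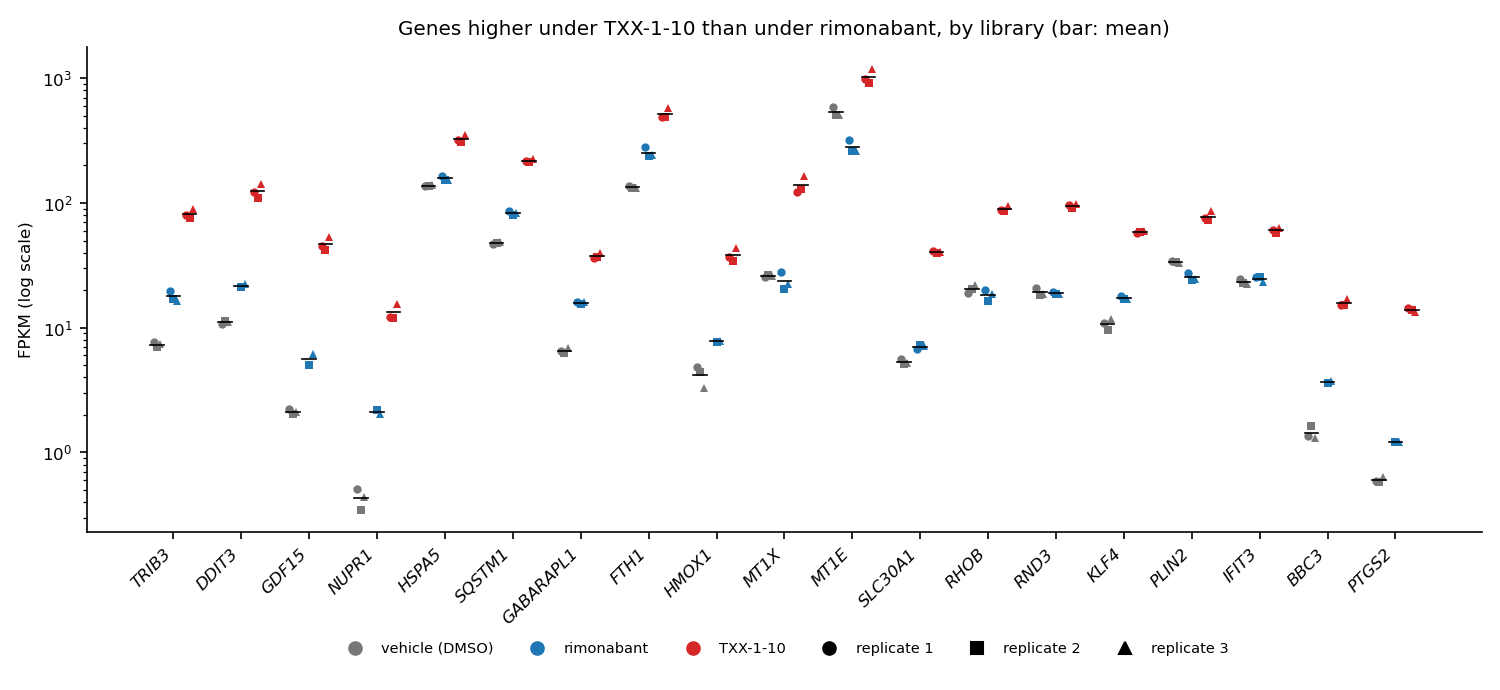
FPKM on a log axis in each library of vehicle (grey), rimonabant (blue) and TXX-1-10 (red) for 19 genes that were called higher under TXX-1-10, with the marker shape giving the replicate and a bar the mean. In each gene the red points lie above every blue point, and for MT1X, RHOB and RND3 the blue points lie at the level of the grey ones, while for TRIB3, SQSTM1 and GABARAPL1 they lie between grey and red.

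Among regulators of apoptosis BBC3 and BMF, of the BH3-only class, whose products block survival proteins, were higher, and the list as a whole moved at shares near those of all genes. BBC3 (PUMA) was at 1.36, 1.64 and 1.31 in vehicle, 3.63 and 3.73 with rimonabant and 15.3, 15.2 and 17 with TXX-1-10 (2.10 ± 0.09, edgeR adjusted p = 1.14e-06). BMF had 37 and 35 counts in the 2 rimonabant libraries and 429, 381 and 365 under TXX-1-10 (3.44 ± 0.16, edgeR adjusted p = 9.89e-07). BCL2, the survival protein, was at 2.25, 2.2 and 2.11 in vehicle, 3.29 and 3.29 with rimonabant and 1.47, 1.8 and 1.43 with TXX-1-10, so the compounds lay on opposite sides of vehicle (-1.07 ± 0.11, but -0.74 by limma on log2(FPKM + 1)). Of 34 tested in the 5 libraries 2 were called higher and 3 lower, and 8 were higher and 11 lower with an adjusted p under 0.05, against 23.7% and 28.4% of all genes (median -0.02). BAX was at 54.2, 42.5 and 48.6 against 47.5, 47.6 and 57.8 (95% interval -0.19 to 0.34) and was not called.

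Further genes with large differences in the 5 libraries lay outside the lists. PTGS2, the inducible cyclooxygenase, was at 0.589, 0.583 and 0.639 in vehicle, 1.21 and 1.21 with rimonabant and 14.3, 13.8 and 13.4 with TXX-1-10, 11.4-fold higher (3.51 ± 0.09, edgeR adjusted p = 3.14e-07). TM4SF19, a membrane protein of the tetraspanin-like L6 family, was at 2.27 and 2.76 against 14.8, 15.5 and 15.7 (2.61 ± 0.12). TNFSF15, a cytokine of the TNF family, had 20 and 20 counts with rimonabant and 156, 163 and 148 with TXX-1-10 (2.95 ± 0.20, but 0.86 by limma on log2(FPKM + 1)). In the other direction DMBT1, a secreted scavenger protein, was at 6.32, 6.69 and 7.21 in vehicle, 1.85 and 1.39 with rimonabant and 0.161, 0.202 and 0.121 with TXX-1-10 (-3.32 ± 0.24), FAM111B, a protease gene of cycling cells, at 15.1 and 15.4 against 1.95, 2.18 and 1.7 (-2.97 ± 0.11), and SLC38A4, an amino acid transporter, at 2.26 and 1.72 against 0.3, 0.446 and 0.21 (-2.64 ± 0.27). EIF3CL, a near-identical copy of EIF3C, had 62 and 529 counts in the 2 rimonabant libraries and 51, 34 and 38 under TXX-1-10, so its difference of -2.86 ± 0.77 rests on rimonabant replicate 3 and was -0.59 with an edgeR adjusted p of 0.131 without it. RPLP0P2, a pseudogene copy of RPLP0, was called higher (3.20 ± 0.20) while RPLP0 was not.

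Other lists had few or no calls, which does not show that their levels were equal. The 95% interval lay within -0.25 to 0.25 for 607 genes (14.3%) in the 6 libraries and 1014 (8.64%) in the 5, counts that moved with the libraries used. They were 1227 without both libraries that stood apart and 328 without rimonabant replicate 3 in the 6 libraries, and 2054 without TXX-1-10 replicate 3 and 94 without rimonabant replicate 3 in the 5. None of 72 cytosolic ribosomal protein genes was called by edgeR, DESeq2 or limma, with 1 lower and 1 higher at an unadjusted and at an adjusted p under 0.05, and the interval lay within those bounds for 1 of them. In the 5 libraries 13 of 73 were higher and 2 lower with an adjusted p under 0.05 and 65 differences were positive, with a median of 0.18, or 0.07 without TXX-1-10 replicate 3. RPLP0 was at 522, 502 and 506 in vehicle, 587, 485 and 500 with rimonabant and 484, 475 and 593 with TXX-1-10 (95% interval -0.30 to 0.26). The cholesterol genes had a median of -0.14 and none of 13 called by edgeR, DESeq2 or limma. At an unadjusted p under 0.05, 5 of them were lower and 1 higher. Of all 4236 genes 1623 were lower and 1031 higher at that p, so the share lower among the cholesterol genes was near that of all genes. IDI1, of isoprenoid synthesis, was at 11.8, 11.7 and 10.5 in vehicle, 24.9, 23.1 and 22.5 with rimonabant and 15.2, 13.4 and 16.2 with TXX-1-10 (-0.65 ± 0.08). Mesenchymal and intermediate filament genes had none of 10 called by edgeR, DESeq2 or limma, and 4 lower and 1 higher at an unadjusted p under 0.05. Here too the share lower was near that of all 4236 genes, and the share higher was below it. Their median of -0.05 turned to 0.04 with TMM. VIM was at 280, 224 and 235 against 276, 261 and 329 (95% interval -0.05 to 0.51), and KRT7, an epithelial keratin, at 201, 202 and 208 in vehicle, 56.6, 48.1 and 50.9 with rimonabant and 31.6, 33.3 and 34.9 with TXX-1-10 (-0.64 ± 0.07). Ribosome biogenesis genes had none of 17 called by these tools, 8 lower and 4 higher at an unadjusted and at an adjusted p under 0.05, and a median of -0.21. Of all genes 35.4% were lower and 22.6% higher after adjustment. EGFR ligands and ERK output genes had 1 of 17 called, SPRY2, a feedback inhibitor (1.07 ± 0.06), or 3 with TMM or DESeq2, and 8 higher and 1 lower with an adjusted p under 0.05, against 22.6% and 35.4% of all genes (median 0.18). HBEGF, an EGFR ligand of the 5-library comparison, was lower at 22.2 and 21.6 against 8.22, 7.6 and 8.07 (-1.46 ± 0.07).

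Genes tied to the screen behind TXX-1-10 were read in the same way. PBXIP1 (ENSG00000163346, chr1:154944076-154956123), which encodes HPIP, was at 8.47, 8.03 and 8.85 in vehicle, 12.1 and 11.7 with rimonabant and 15.7, 14.6 and 16.3 with TXX-1-10, from 879 and 837 counts with rimonabant and 1162, 1036 and 1157 with TXX-1-10. Its mRNA was higher under TXX-1-10 than under rimonabant by 0.38 ± 0.07 (95% interval 0.21 to 0.55, edgeR adjusted p = 0.00275), short of a call, and neither compound's libraries overlapped vehicle. CNR1, the gene of the CB1 receptor, had 6, 10 and 12 counts in vehicle, 4, 4 and 3 with rimonabant and 1, 4 and 0 with TXX-1-10, too few to be tested. MGLL, which degrades an endocannabinoid, was at 13.7, 14.7 and 14 against 23, 22.9 and 21.5 (0.67 ± 0.05), and DAGLA, which makes it, at 3.79 and 3.64 against 5.33, 6.01 and 4.16 (0.48 ± 0.14), neither called. PBX3 differed by -0.54 ± 0.10. For kinases that the study followed, MAPK3 had a 95% interval of -0.20 to 0.19 and PTK2 of -0.08 to 0.16, while AKT1 was lower by -0.34 ± 0.05 (edgeR adjusted p = 0.000655). These are mRNA levels and not phosphorylation.

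The vehicle libraries show from which side a difference between the compounds came, and both differences from vehicle use the same 3 vehicle libraries, so they are given side by side with no measure of their likeness. For NCAPG rimonabant differed from vehicle by -0.05 and TXX-1-10 by -2.32, for MT-CO1 by -0.20 and -2.07, for CTGF by -0.18 and -2.87, and for RND3 by -0.03 and 2.31. In these genes TXX-1-10 alone stood far from vehicle. For TRIB3 the 2 values were 1.28 and 3.48, for NUPR1 2.29 and 4.94, for SQSTM1 0.79 and 2.18, and for THBS1 -1.80 and -3.39, the same direction under both with more under TXX-1-10. Genes on opposite sides of vehicle included RRM2 (0.49 and -2.80), TCF19 (0.54 and -2.03), ASF1B, a histone chaperone (0.52 and -1.25), UBR7 (0.53 and -0.87) and CDCA5, which protects cohesion (0.41 and -1.18), all above vehicle under rimonabant. The reverse order held for MT1E (-0.93 and 0.94), OASL, an interferon-induced gene (-0.73 and 1.21), NAMPT, of NAD synthesis (-0.15 and 1.07), and the noncoding GAS5 (-0.46 and 0.69).

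IGFBP1 lay apart from vehicle under rimonabant, and a few other genes lay above vehicle by similar amounts under both compounds. IGFBP1, a binding protein of insulin-like growth factors, was at 19.8, 17.9 and 19.2 in vehicle, 5.56 and 5.52 with rimonabant and 18.6, 17.2 and 19.2 with TXX-1-10, so only rimonabant stood apart from vehicle (1.72 ± 0.10 between the compounds, edgeR adjusted p = 3.7e-06). Among the genes also listed in vehicle, 4236 of the 6-library and 9395 of the 5-library comparison, it and MT1E were the only genes called between the compounds and called against vehicle under rimonabant with a smaller change under TXX-1-10, MT1E in the 5-library comparison alone. SH3BP5L was at 10.2, 9.77 and 10.1 in vehicle, 20.2, 20.9 and 19.9 with rimonabant and 22.5, 22.3 and 22.3 with TXX-1-10 (95% interval between the compounds 0.03 to 0.24, slightly higher under TXX-1-10 with an edgeR adjusted p of 0.0347), and PKIA, an inhibitor of protein kinase A, at 2.76, 2.85 and 2.47, 5.96 and 6.09 and 6.35, 6.37 and 5.86 (-0.15 to 0.23). The differences from vehicle were 1.02 under rimonabant and 1.15 under TXX-1-10 for SH3BP5L, 1.16 and 1.20 for PKIA, 1.01 and 1.08 for TXNRD1, and 1.17 and 1.13 for CSRNP1 (interval between the compounds -0.25 to 0.17).

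**Figure D4:**
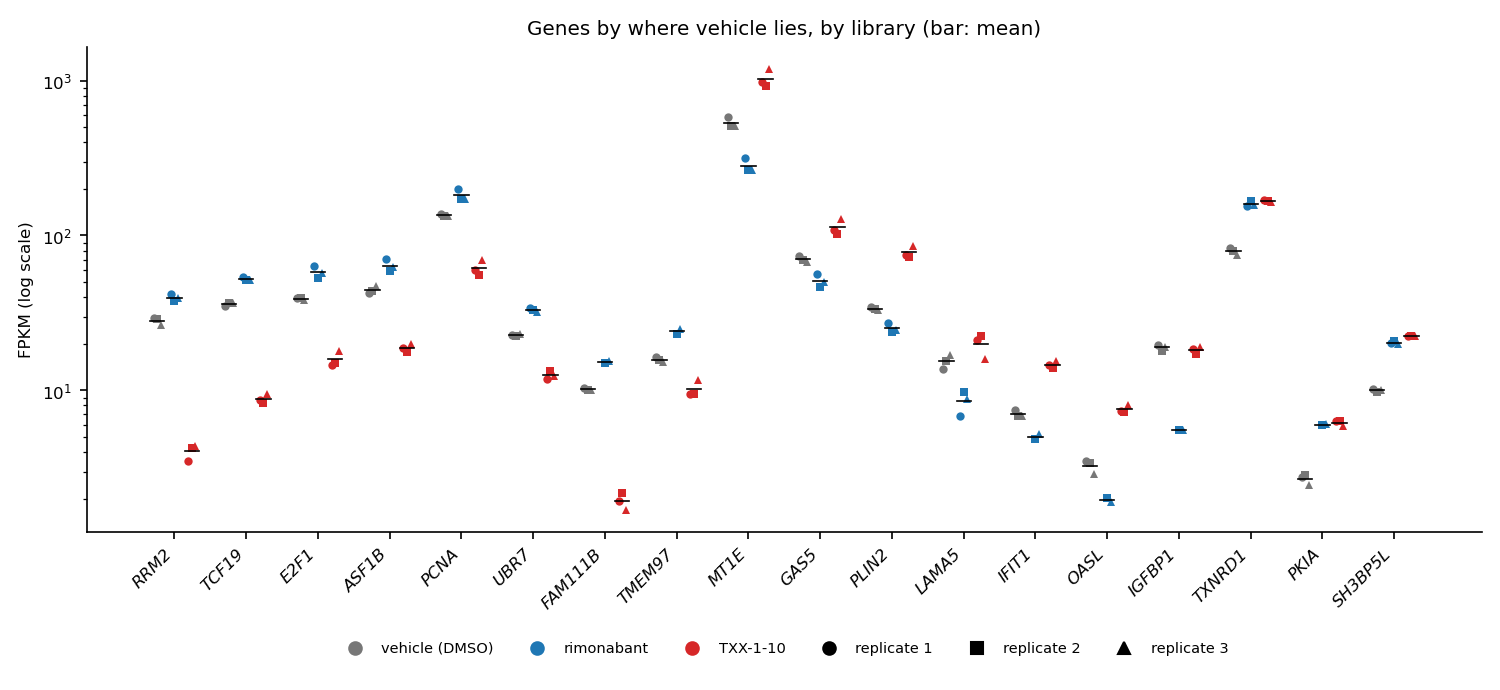
FPKM on a log axis in each library of vehicle (grey), rimonabant (blue) and TXX-1-10 (red) for 18 genes chosen by where vehicle lies, with the marker shape giving the replicate and a bar the mean. From RRM2 to TMEM97 grey lies between a higher blue and a lower red, from MT1E to OASL between a lower blue and a higher red, with LAMA5 red replicate 3 within the grey range, IGFBP1 has blue alone apart, and in TXNRD1, PKIA and SH3BP5L blue and red lie together above grey.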

How the data were processed

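RNA-seq was read from 9 libraries of MDA-MB-231 cells, of which the 3 of rimonabant and the 3 of TXX-1-10 were compared and the 3 of vehicle gave the baseline. The authors deposited 1 list per library that gives, gene by gene, the raw count and an FPKM value, which is the count per 1000 bases of the gene and per 1000000 counts of a library total (17078370 to 19277808 over the 9 libraries). The submitters' processing notes name HISAT2 2.0.5 and featureCounts 1.5.0-p3. Which reads the total holds and whether counting used the strand are not given in the sources used here. All 27615 genes of the longest list have GENCODE release 29 coordinates (GRCh38). Each list ends partway through a line, and that last line was left out.

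The total recovered from count, length and FPKM served as library size. Genes with a mean count under 10 were removed, which was CNR1 in the 6 libraries. Counts were tested in edgeR 4.0.16 (R 4.3.3) by glmQLFit and glmQLFTest with the compound as the only term, and p-values were adjusted by Benjamini-Hochberg over all genes tested. SE and 95% intervals come from the same model. Differences from vehicle come from a model of all 3 treatments. The scripts were tested on simulated data. Alternatives were TMM, DESeq2 1.42.0, limma 3.58.1 on log2(FPKM + 1) and log2(FPKM + 0.1), other filters, glmTreat, a replicate block, a lowess correction for gene length, protein-coding genes only, vehicle in the model and each library left out.

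The comparison, the 35 gene lists and the named genes were chosen with earlier results of these data known. Named were the 15 largest called differences per direction without overlap in the 6 libraries, the 10 largest in the 5, up to 4 genes per list, genes on opposite sides of vehicle, close genes, genes farther from vehicle under rimonabant, and genes the paper names. Other list members, given by their log2 difference, and CDC25B, ATF4, MT2A, MT-ND1, MT-ND2 and MT-ATP8 were named after their values were seen. Some genes and a list are not reported here.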

Additional observations from a re-analysis of the deposited data

How the results depend on the processing

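The number of genes called stayed within 1.5 times that of the comparison as reported under every alternative except those given here. The 6 libraries gave 243 calls with TMM (153 lower, 90 higher), 243 with DESeq2, 236 with a length correction and 217 with limma on log2(FPKM + 1), and 245 to 259 when a library was left out. The 5 libraries gave 833 to 870 when a library was left out, where a rimonabant group of 1 is assumed to vary like TXX-1-10. With glmTreat, which tests against the threshold itself, the counts were 130 (99 lower, 31 higher) and 394 (262 lower, 132 higher). limma on log2(FPKM + 1) gave 486 calls in the 5 libraries (308 lower, 178 higher), since low FPKM values shrink on that scale, and the 9395 genes also listed in vehicle gave 197 higher calls. At any size, the 5 libraries gave 3901 genes without rimonabant replicate 2, 4022 without its replicate 3 and 7955 without TXX-1-10 replicate 3. The number of genes with a narrow interval around 0 varied most, and the cause was not tested. In the 6 libraries it was 1006 with a length correction, 1227 without both libraries that stood apart and 328 to 598 when 1 was left out. In the 5 libraries it was 1596 with a length correction, 1625 with that and a replicate block, 2252 with that and without TXX-1-10 replicate 3 (chosen after seeing the data), and 94 to 2054 when 1 was left out. No named gene that was called changed sign. Counting each of the 206 named genes under each alternative, 78 calls were lost, 35 of them with glmTreat and 13 with limma on log2(FPKM + 1), and 28 were gained.

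The replicate numbers are shared between groups but were not used as pairs in the main test. Deviations of same-numbered libraries correlated at -0.79, 0.80 and -0.59, and rimonabant replicate 1 with TXX-1-10 replicate 3 at 0.89. The latter are the libraries that stood apart by gene length, so these correlations cannot show whether same-numbered libraries were paired. With the replicate block the 6 libraries gave 250 calls and the 5 libraries 851. Depth limits what can be said of genes with few counts such as CNR1, and a gene absent from a list is not analysed here.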
